A study of Rattus norvegicus with 4 samples.

Results

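The small leucine-rich proteoglycans measured here were Dcn, Bgn, Aspn, Lum, Fmod, Prelp and Ogn, taken as every probe set of the array whose annotated gene symbol was exactly one of these names. The 7 genes had 11 probe sets of 31099 on the array, 4 for Ogn, 2 for Aspn and 1 for each of the others. The samples were primary cultures of rat granulosa cells, which surround the oocyte in the follicle and make estradiol. They came from estradiol-treated Sprague-Dawley females aged 23 to 25 days and were plated without serum in wells precoated with serum. Every culture received an adenovirus for 4 h, and then either 100 ng/ml of the hormone FSH (follicle-stimulating hormone) or its vehicle over 24 h. The groups were FOXOA3 FSH, whose vector expressed constitutively active FOXO1, a forkhead transcription factor, FOXOA3-mDBD FSH, with a DNA-binding mutant of it, GFP FSH, with the control vector for green fluorescent protein, and GFP vehicle, with that vector and no hormone. Each group had 1 array, so no difference has a replicate check or an error, and p-values were not computed. The number of cultures or animals behind an array, the viral dose and the share of infected cells are unknown here.

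Small leucine-rich proteoglycans are secreted matrix proteins whose core is a curved array of leucine-rich repeats. Most carry chondroitin, dermatan or keratan sulfate chains, bind to collagen fibrils and limit how thick the fibrils grow. Several also hold growth factors of the TGF-beta family in the matrix, and decorin and biglycan act on cell-surface receptors as well. In the ovary decorin is known mainly from the collagen-rich theca and stroma outside the follicle wall, while granulosa cells inside that wall are better known for the large proteoglycan versican. By sequence family Dcn, Bgn and Aspn belong to one class, Lum, Fmod and Prelp to another, and Ogn to yet another.

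The values are MAS5 signals, the array maker's summary of each probe set on a linear scale. Signals under a floor of 100.5, the median over all probe sets and arrays, were raised to the floor before a ratio was taken, and a fold whose dimmer side was at the floor is written "at least". Genes were taken as measured where the brighter of both signals exceeded the floor, and were called higher or lower from 2-fold upwards. Where a gene had several probe sets, the one with the highest mean signal gave its fold. Signals of different probe sets are not on a common scale, so levels are compared between arrays and not between genes.

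The promoter sequences of 3 neighbouring family genes are shown first, because Aspn differed in direction from Ogn and Omd in the results that follow. Both FOXO1 vectors against GFP FSH gave positive log2 ratios for Aspn and negative ones for Ogn and Omd. Ogn, Omd (osteomodulin, a further family gene) and Aspn lie next to each other in this order on rat chromosome 17. Each sequence holds the 250 bases before the annotated start, from RefSeq on build GRCr8, on the minus strand, which is the strand of each of these genes. The windows are chr17:15310470-15310719 for Aspn, chr17:15258996-15259245 for Ogn and chr17:15274871-15275120 for Omd. Capitals mark TTGTTT or its reverse complement AAACAA, a short core of forkhead binding sites.
Aspn: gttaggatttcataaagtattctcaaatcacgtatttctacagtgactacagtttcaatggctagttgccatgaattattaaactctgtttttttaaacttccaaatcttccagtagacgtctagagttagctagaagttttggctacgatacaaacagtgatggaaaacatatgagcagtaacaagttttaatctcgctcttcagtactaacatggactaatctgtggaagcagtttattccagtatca
Ogn: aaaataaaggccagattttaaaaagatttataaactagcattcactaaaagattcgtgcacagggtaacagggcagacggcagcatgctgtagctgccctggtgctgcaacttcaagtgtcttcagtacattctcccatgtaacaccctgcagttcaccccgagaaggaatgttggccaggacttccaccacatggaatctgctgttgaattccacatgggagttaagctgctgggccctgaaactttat
Omd: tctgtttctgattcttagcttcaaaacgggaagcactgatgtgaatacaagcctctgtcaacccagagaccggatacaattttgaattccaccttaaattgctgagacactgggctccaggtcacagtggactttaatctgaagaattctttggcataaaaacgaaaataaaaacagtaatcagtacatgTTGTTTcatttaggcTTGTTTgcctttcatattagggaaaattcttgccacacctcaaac
TTGTTT, read on both strands, occurred in Omd at 60 and 45 bases before the start, and these letters are in neither the Aspn nor the Ogn window. Ecm2, the next family gene after Aspn, had 1 match at 249 bases before the start. In all 2 of 14 family promoters in the table held it, Omd and Ecm2. It occurred in 18.1% of 33469 rat promoter windows of the same length. The longer FOXO consensus GTAAACA, read on both strands and overlapping the shorter motif where A follows it, occurred in 3.21% of all windows. GTAAACA is in none of the windows of the 4 genes with a promoter in the table (Lum, Ogn, Aspn and Fmod), nor in that of Omd. A match is only a match of letters and was not tied to binding by any measurement here.

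Among the class that holds decorin, Dcn was bright on a single array. Decorin carries a chondroitin or dermatan sulfate chain, binds collagen and TGF-beta, and damps growth factor receptors. Its probe set 1370956_at had a signal of 12504 on FOXOA3 FSH, 205.7 on FOXOA3-mDBD FSH, 485.2 on GFP FSH and 624.1 on GFP vehicle. Only the FOXOA3 FSH array was high, and the DNA-binding mutant gave the dimmest of the 4 signals. Dcn was thus 25.8-fold higher in FOXOA3 FSH than in GFP FSH, 60.8-fold higher than in FOXOA3-mDBD FSH and 20.0-fold higher than in GFP vehicle. In FOXOA3-mDBD FSH it was 2.36-fold lower than in GFP FSH, and GFP FSH against GFP vehicle gave a log2 ratio of -0.36. Among genes above the floor on both arrays, Dcn had rank 3 from the highest log2 ratio of 8745 in FOXOA3 FSH against GFP FSH, rank 2 of 8605 against FOXOA3-mDBD FSH and rank 7 of 8939 against GFP vehicle. Dcn had 1 probe set, so no second reading on the array could be set beside it.

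Aspn followed another order. Asporin, a relative of decorin with a stretch of aspartate residues and no attached sugar chain of the decorin type, binds collagen and TGF-beta. Its probe set 1381504_at had a signal of 3305 on FOXOA3 FSH, 11514 on FOXOA3-mDBD FSH, 22.4 on GFP FSH and 1099 on GFP vehicle. The other probe set, 1380726_at, had 3045 on FOXOA3 FSH, 8064 on FOXOA3-mDBD FSH, 16.1 on GFP FSH and 1211 on GFP vehicle. Both gave the same order, brightest with the DNA-binding mutant and under the floor with GFP and FSH. With FSH under the GFP vector Aspn was at least 10.9-fold lower than with vehicle. Against GFP FSH it was at least 32.9-fold higher in FOXOA3 FSH and at least 115-fold higher in FOXOA3-mDBD FSH by the brighter probe set, and at least 30.3-fold and at least 80.2-fold by the other. FOXOA3 FSH was 3.48-fold lower than FOXOA3-mDBD FSH and 3.01-fold higher than GFP vehicle. Dcn and Aspn were thus both higher on FOXOA3 FSH than on GFP FSH, whereas on FOXOA3-mDBD FSH Aspn was higher and Dcn lower than on GFP FSH.

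Bgn was brightest without hormone. Biglycan, the closest relative of decorin, binds collagen and TGF-beta and can signal through Toll-like receptors. Its probe set 1367594_at had a signal of 154.0 on FOXOA3 FSH, 18.3 on FOXOA3-mDBD FSH, 140.4 on GFP FSH and 605.5 on GFP vehicle. All 3 arrays with FSH were below the vehicle array, and the mutant array was under the floor. Bgn was 4.31-fold lower in GFP FSH and 3.93-fold lower in FOXOA3 FSH than in GFP vehicle. FOXOA3 FSH against GFP FSH gave a log2 ratio of 0.13, and FOXOA3-mDBD FSH against GFP FSH a ratio of -0.48 at the floor, or -2.94 when the signals were taken without a floor.

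**Figure D1:**
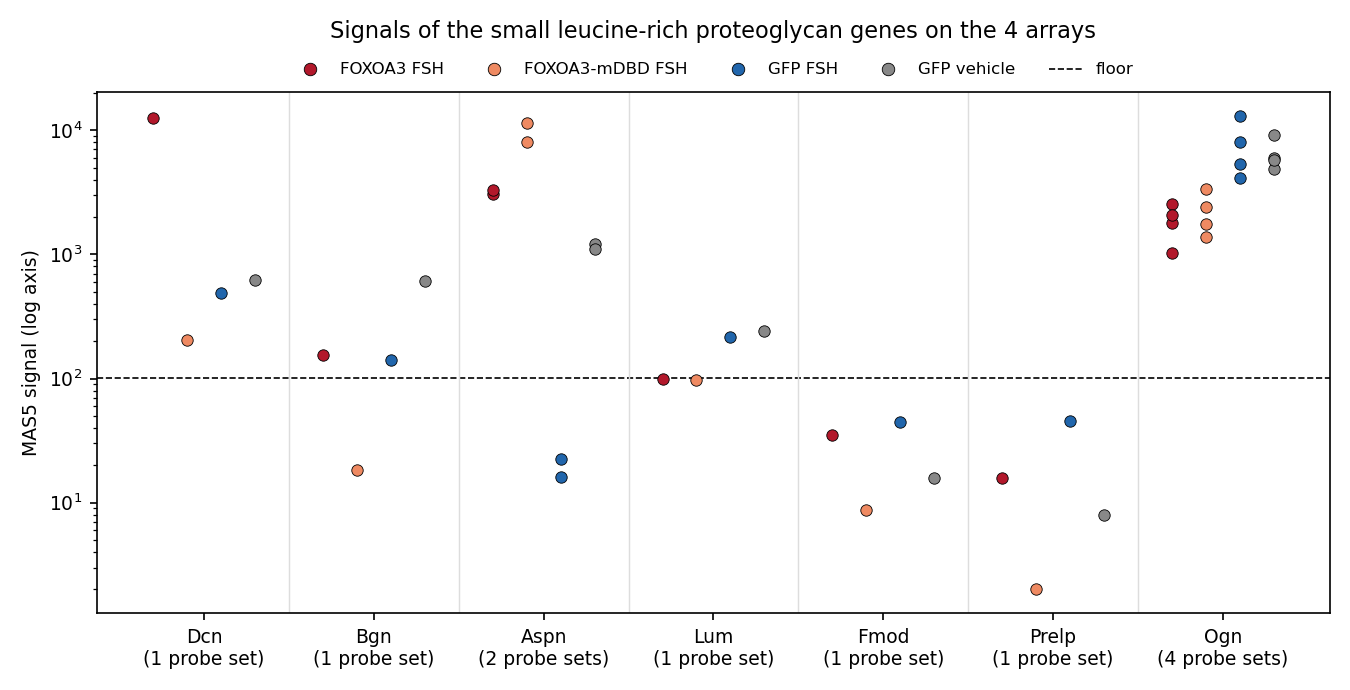
MAS5 signals on a log axis for every probe set of the 7 genes (points) on the 4 arrays (colours), with the floor of 100.5 as a dashed line. Dcn stands at 12504 on FOXOA3 FSH alone, Aspn is under the floor on GFP FSH alone, Fmod and Prelp are under the floor on all 4 arrays, and the 4 Ogn probe sets are lower on both FOXO1 vector arrays than on both GFP arrays.

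The class of lumican was dim. Lumican, which organises collagen fibrils in cornea and skin, had a signal of 98.8 on FOXOA3 FSH, 97.8 on FOXOA3-mDBD FSH, 215.8 on GFP FSH and 241.5 on GFP vehicle at probe set 1367749_at. Both FOXO1 vector arrays were just under the floor and both GFP arrays were above it. Lum was at least 2.15-fold lower in either vector with FSH than in GFP FSH, and at least 2.40-fold lower in FOXOA3 FSH than in GFP vehicle. Fmod, which encodes fibromodulin, a collagen-binding keratan sulfate proteoglycan of tendon and cartilage, had signals of 34.9, 8.7, 44.7 and 15.8 on FOXOA3 FSH, FOXOA3-mDBD FSH, GFP FSH and GFP vehicle. Prelp, which encodes a heparin-binding member that links basement membranes to collagen, had 15.8, 2.0, 45.6 and 7.9 on the arrays in that order. Both were under the floor on all 4 arrays, so no fold is given for them.

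Ogn was lower on both arrays with a FOXO1 vector. Osteoglycin, also called mimecan, is a small keratan sulfate proteoglycan that takes part in collagen fibril assembly. Its brightest probe set, 1376749_at, had a signal of 2562 on FOXOA3 FSH, 3329 on FOXOA3-mDBD FSH, 12973 on GFP FSH and 9115 on GFP vehicle. Probe set 1383263_at had 1034 on FOXOA3 FSH, 1742 on FOXOA3-mDBD FSH, 7972 on GFP FSH and 4893 on GFP vehicle. For each of the 4 probe sets, both FOXO1 vector arrays lay below both GFP arrays. Probe set 1385248_a_at had 1782 on FOXOA3 FSH, 2416 on FOXOA3-mDBD FSH, 4082 on GFP FSH and 5944 on GFP vehicle. Probe set 1390450_a_at had 2090 on FOXOA3 FSH, 1368 on FOXOA3-mDBD FSH, 5348 on GFP FSH and 5730 on GFP vehicle. Unlike the other pair of probe sets, 1385248_a_at and 1390450_a_at were dimmer on GFP FSH than on GFP vehicle, and 1390450_a_at was dimmest with the mutant. By the brightest probe set Ogn was 5.06-fold lower in FOXOA3 FSH and 3.90-fold lower in FOXOA3-mDBD FSH than in GFP FSH, and 3.56-fold lower in FOXOA3 FSH than in GFP vehicle. Over the 4 probe sets the log2 ratio of FOXOA3 FSH to GFP FSH ran between -2.95 and -1.20, and all 4 passed 2-fold. That of FOXOA3-mDBD FSH to GFP FSH ran between -2.19 and -0.76, and 3 passed 2-fold. GFP FSH against GFP vehicle gave log2 ratios between -0.54 and 0.70, with 0 probe sets past 2-fold in either direction, so the probe sets differed in sign there. Probe sets of a gene share an RNA sample and are not replicates.

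By comparison, 0 of the 5 measured members were higher and 2 were lower in GFP FSH than in GFP vehicle, where 6.84% of 9578 measured genes were higher and 11.1% were lower. The members' median log2 ratio was -0.36, beside -0.00 over all measured genes. Setting FOXOA3 FSH against GFP FSH, 2 of 5 were higher (Dcn and Aspn) and 2 were lower (Ogn and Lum), against 11.1% and 6.99% of 9941 genes, with a median of 0.13 beside 0.04. Setting FOXOA3-mDBD FSH against GFP FSH, 1 of 5 was higher (Aspn) and 3 were lower (Dcn, Ogn and Lum), against 12.5% and 19.1% of 9748 genes, with a median of -1.10 beside -0.16. In FOXOA3 FSH against FOXOA3-mDBD FSH, 1 of 4 was higher (Dcn) and 1 was lower (Aspn), against 19.0% and 9.24% of 10092 genes, with a median of 0.12 beside 0.20. Median centring of the arrays turned these 1913 higher and 932 lower genes into 1314 and 1351, and the calls of Dcn and Aspn stayed. In FOXOA3 FSH against GFP vehicle, 2 of 5 were higher (Dcn and Aspn) and 3 were lower (Ogn, Bgn and Lum), against 5.32% and 4.01% of 9904 genes, with a median of -1.27 beside 0.01. A count over 5 genes is a description and no test was made on it. The comparisons share arrays, the GFP FSH array entering 3 of them and the FOXOA3 FSH array 3. FOXOA3 FSH and GFP vehicle differ in both vector and hormone.

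**Figure D2:**
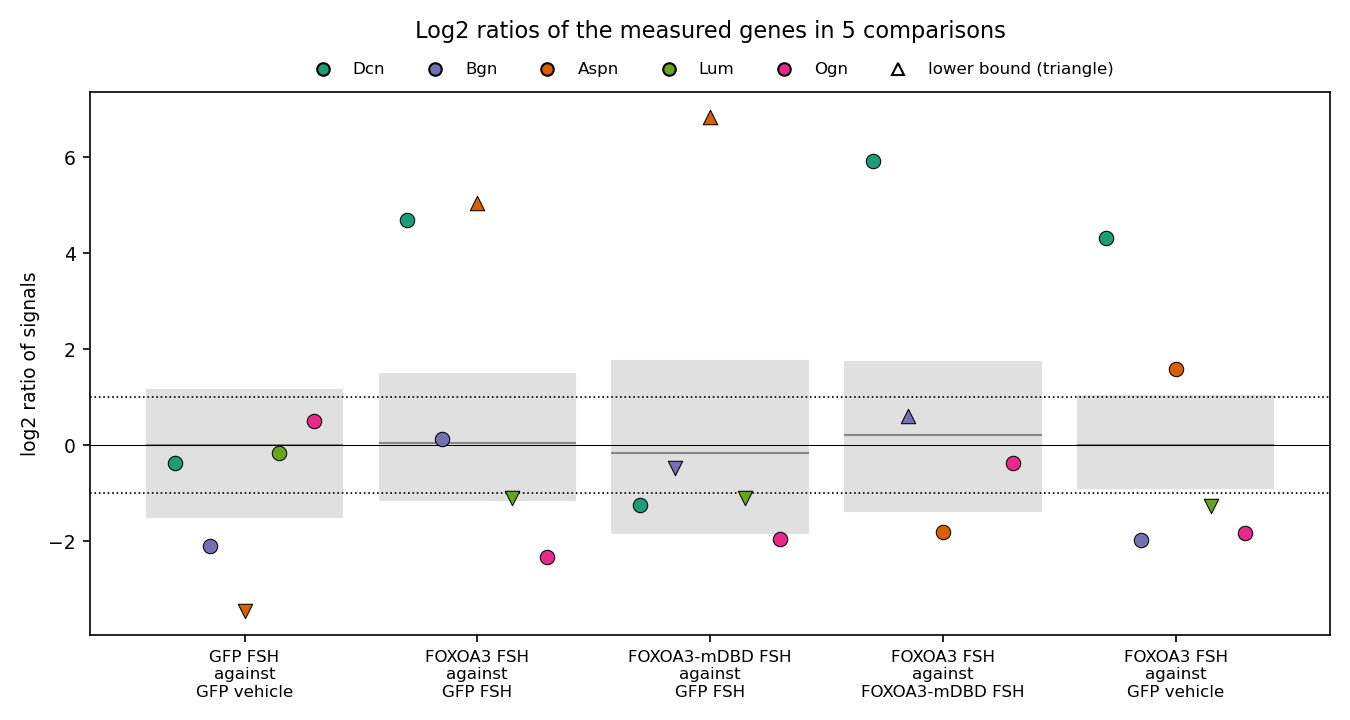
Log2 ratios (points) of the 5 genes above the floor in each of the 5 comparisons, where triangles are lower bounds set by the floor, dotted lines mark 2-fold, and the grey bar spans the 5th to the 95th percentile of all measured genes with their median. Dcn reaches 4.69 in FOXOA3 FSH against GFP FSH and -1.24 in FOXOA3-mDBD FSH against GFP FSH, while Aspn is at least 5.04 and at least 6.84 in the same comparisons.

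The arrays also differed in a technical feature that crosses the groups. The bacterial poly-A spike transcripts added to RNA before labelling had geometric mean signals of 22.6 on FOXOA3 FSH, 539.4 on FOXOA3-mDBD FSH, 394.6 on GFP FSH and 21.4 on GFP vehicle. Spike signals were thus alike within the pair FOXOA3-mDBD FSH and GFP FSH, and within the pair FOXOA3 FSH and GFP vehicle, while the other 3 comparisons set unlike arrays against each other. Within the like pairs, Aspn was at least 115-fold higher in FOXOA3-mDBD FSH than in GFP FSH. Dcn was 2.36-fold, Ogn 3.90-fold and Lum at least 2.15-fold lower there, and Bgn was short of 2-fold with the floor. In FOXOA3 FSH against GFP vehicle, Dcn was 20.0-fold and Aspn 3.01-fold higher, and Ogn 3.56-fold, Bgn 3.93-fold and Lum at least 2.40-fold lower. That pair differed in both vector and hormone, whose parts cannot be told apart in it. The pairs are alike in spike signals only. The 3' to 5' ratio of beta-actin, a measure of RNA integrity and labelling, was 9.79 on FOXOA3 FSH, 10.7 on FOXOA3-mDBD FSH, 12.0 on GFP FSH and 5.15 on GFP vehicle. That of a further control gene, GAPDH, was 2.842, 3.155, 2.455 and 2.316 on the arrays in that order, highest on the mutant array. The part of RNA integrity and labelling in the members' values was not tested. Foxo1 itself had signals of 3834, 961 and 2862 on FOXOA3 FSH, FOXOA3-mDBD FSH and GFP FSH, and 8149 on GFP vehicle. It is unknown here whether its probe set reads the transgenes, and these signals do not check the vectors.

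Markers of granulosa cells were present on all arrays. Of 11 such markers on the array, 11, 10, 11 and 10 were above the floor on FOXOA3 FSH, FOXOA3-mDBD FSH, GFP FSH and GFP vehicle, with the aromatase gene Cyp19a1 at 725.5, 274.8, 13042 and 35.0. Their levels differed, with summed signals of 45096, 28601, 108160 and 35303. In GFP FSH against GFP vehicle 7 of 11 were higher and 0 lower, beside 6.84% and 11.1% of all measured genes. Against GFP FSH, 0 were higher and 8 lower in FOXOA3 FSH, beside 11.1% and 6.99%. In FOXOA3-mDBD FSH 0 were higher and 9 lower, beside 12.5% and 19.1%, with Gata4 10.5-fold and Foxl2 3.56-fold lower. Markers of theca, stroma and smooth muscle were above the floor for 6, 3, 3 and 5 of 12 genes in the same order of arrays. Their summed signal was 6765 on FOXOA3 FSH, 2298 on FOXOA3-mDBD FSH, 2647 on GFP FSH and 16002 on GFP vehicle. That sum was carried by the smooth muscle genes Tagln and Acta2 and by Nr2f2, while the theca genes Cyp17a1 and Insl3 and the stromal genes Pdgfrb and Thy1 were under the floor on all 4 arrays. Pdgfra, a stromal receptor, was above the floor only on FOXOA3 FSH, at 114.3, against 59.0, 77.1 and 63.8 on FOXOA3-mDBD FSH, GFP FSH and GFP vehicle. Of 6 such markers measured, 3 were higher and 0 lower in FOXOA3 FSH against GFP FSH, beside 11.1% and 6.99% of all measured genes. The count was the same against FOXOA3-mDBD FSH, beside 19.0% and 9.24%. In both comparisons the 3 were Tagln, Acta2 and Nr2f2, and Dcn was higher too. Against GFP vehicle 0 of 7 were higher and 2 lower in FOXOA3 FSH, beside 5.32% and 4.01%, and Dcn was higher there. In FOXOA3-mDBD FSH against GFP FSH, where Aspn was higher, 0 of 3 were higher and 0 lower, beside 12.5% and 19.1%. In GFP FSH against GFP vehicle, where Aspn and Bgn were lower, 0 of 5 were higher and 3 lower, beside 6.84% and 11.1%. These were Acta2 at 19.3-fold, Tagln at 10.2-fold and Nr2f2 at 2.27-fold. Leukocyte markers above the floor numbered 4, 3, 2 and 4 of 9, with sums of 4332, 1841, 1634 and 2974, and the pan-leukocyte marker Ptprc was under the floor on all 4 arrays. Of 4 measured, 2 were higher and 0 lower in FOXOA3 FSH against GFP FSH, Cd14 at 3.55-fold and Lyz2 at 2.14-fold. Against FOXOA3-mDBD FSH the same 2 were higher, at 2.55-fold and 2.47-fold, and 0 lower. Against GFP vehicle 1 of 4 was higher, Lyz2 at 3.37-fold, and 0 lower. The shares of all measured genes are those given above. Endothelial markers numbered 2, 2, 1 and 1 of 7, with sums of 479.8, 600.0, 350.5 and 581.6, and surface epithelium markers 4, 3, 3 and 2 of 8, with sums of 827.3, 796.0, 775.8 and 958.4. The part of other cell types in the members' values was not tested beyond these signals. In such bulk RNA, fewer cells of a type and less RNA per cell cannot be told apart.

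Genes that sit next to each other in the genome differed in these cells. On chromosome 17 the family genes follow in the order Ogn, Omd, Aspn and Ecm2 in the RefSeq annotation. The promoter windows of the first 3 are printed above. Between Aspn and Ecm2 the annotation also has Rpl6-ps6, for which no probe set carried the name. Omd, which encodes a keratan sulfate proteoglycan of bone, had a signal of 2188 on FOXOA3 FSH, 3874 on FOXOA3-mDBD FSH, 6238 on GFP FSH and 6240 on GFP vehicle. It was lower on FOXOA3 FSH than on either GFP array, with a log2 ratio of -1.51 against each, and the mutant gave -0.69 against GFP FSH. Ecm2, which encodes a matrix protein with leucine-rich repeats, had 244.2 on FOXOA3 FSH, 119.7 on FOXOA3-mDBD FSH, 301.7 on GFP FSH and 607.0 on GFP vehicle. Its log2 ratio was -1.01 in GFP FSH against GFP vehicle and -1.33 in FOXOA3-mDBD FSH against GFP FSH, both past 2-fold, and -0.31 in FOXOA3 FSH against GFP FSH. Aspn thus was the member of this block that was higher with both vectors than with GFP and FSH, between Omd and Ecm2. The flanking genes Iars1, Nol8 and Bicd2 had log2 ratios between -0.16 and 0.28 for both vectors against GFP FSH. Cenpp, whose annotated span starts before Ogn and overlaps the block, gave -1.07 for FOXOA3 and -0.39 for FOXOA3-mDBD, and Ippk gave 0.98 and 0.65.

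On chromosome 7 Dcn lies next to Lum, and Kera and Epyc follow, for which no probe set carried the name. Dcn had a log2 ratio of 4.69 and Lum one of -1.10 or below in FOXOA3 FSH against GFP FSH. The gene on the other side of Dcn, Btg1, which restrains proliferation, gave -0.06 in the same comparison, and Atp2b1 and Poc1b beyond the block gave 0.28 and 0.31. Eea1, farther on the Btg1 side, gave 1.18. With the mutant against GFP FSH, Dcn gave -1.24, Btg1 0.57, Atp2b1 -0.99 and Poc1b -0.87. On chromosome 13 Optc, Prelp and Fmod follow each other, and each was under the floor on all 4 arrays.

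**Figure D3:**
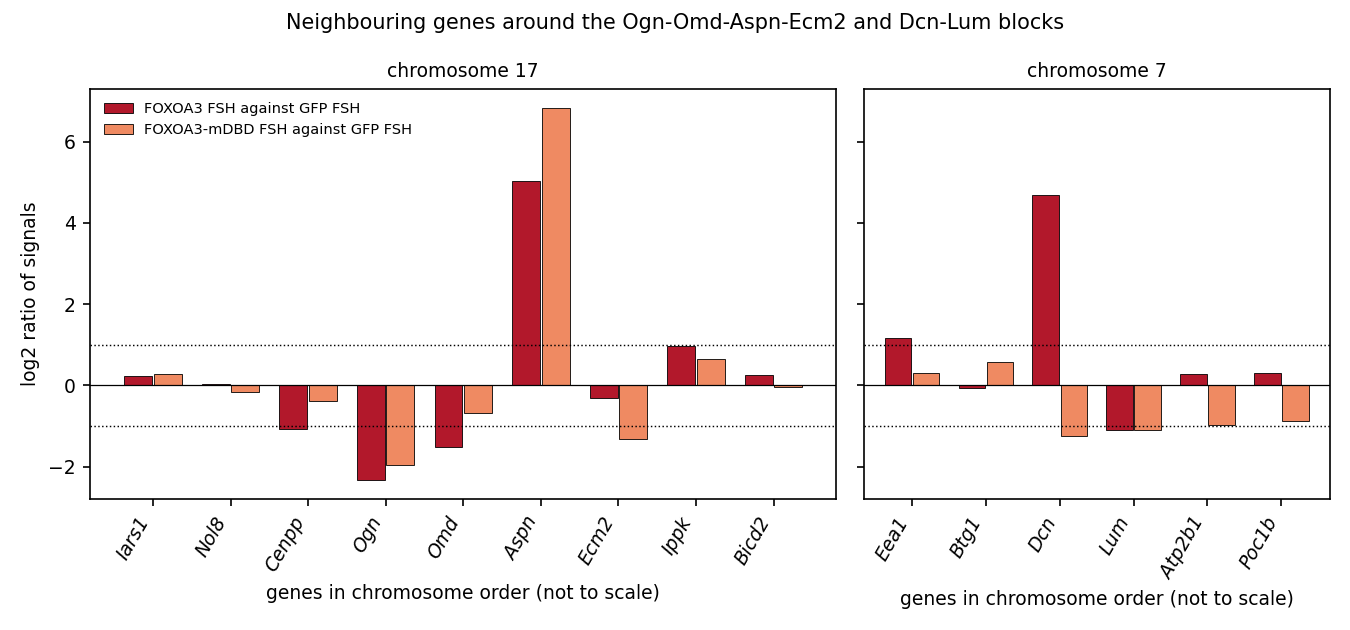
Log2 ratios (bars) of genes named on the array in chromosome order around Ogn, Omd, Aspn and Ecm2 on chromosome 17 and around Dcn and Lum on chromosome 7, for FOXOA3 FSH and FOXOA3-mDBD FSH against GFP FSH, with 2-fold as dotted lines. Aspn, whose bars are lower bounds, stands at 5.04 and 6.84 between Omd and Ecm2, and Dcn at 4.69 and -1.24 beside Lum, whose bars of -1.10 are also bounds.

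Of 11 further family genes listed, 8 were named on the array and 3 were above the floor on any array. Besides Omd and Ecm2 this was Tsku, whose product tsukushi is a secreted inhibitor of BMP signalling in frog and chick. Tsku had 307.9 on FOXOA3 FSH, 50.9 on FOXOA3-mDBD FSH, 186.1 on GFP FSH and 263.7 on GFP vehicle, low on the mutant array only. Optc, Chad, Chadl, Podn and Podnl1 were under the floor on all 4 arrays. Of the 3 measured genes, 0 were higher and 1 was lower in FOXOA3 FSH against GFP FSH, beside 11.1% and 6.99% of all genes. The counts were the same in FOXOA3-mDBD FSH against GFP FSH, beside 12.5% and 19.1%. In FOXOA3 FSH against FOXOA3-mDBD FSH 2 were higher (Ecm2 and Tsku) and 0 lower, beside 19.0% and 9.24%. Against GFP vehicle 0 were higher and 2 lower (Omd and Ecm2) in FOXOA3 FSH, beside 5.32% and 4.01%. In GFP FSH against GFP vehicle 0 were higher and 1 lower (Ecm2), beside 6.84% and 11.1%.

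The genes whose signals followed those of a member most closely were found by the root mean square difference of mean-centred log2 signals over the 4 arrays, among 1503 genes that spanned 4-fold or more. For Dcn these were the membrane glycoprotein gene Igsf1, at a difference of 0.60, the secreted frizzled-related gene Sfrp2, at 0.65, and the collagenase gene Mmp13, at 0.69. Igsf1 had signals of 4800 on FOXOA3 FSH, 161.5 on FOXOA3-mDBD FSH, 147.8 on GFP FSH and 167.1 on GFP vehicle. The genes near Dcn were alike in being high on the FOXOA3 FSH array only. For Aspn they were the protocadherin gene Pcdh20, at 0.71, Arhgap24, at 0.78, and the interferon regulatory factor gene Irf7, at 0.85. Pcdh20 had 1422 on FOXOA3 FSH, 9005 on FOXOA3-mDBD FSH, 74.5 on GFP FSH and 311.8 on GFP vehicle, the same order as Aspn.

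Bgn was most like Zfpm2, a cofactor of GATA factors, at 0.15, Hacd1 at 0.17 and Tmem204 at 0.20. Zfpm2 had 888.9 on FOXOA3 FSH, 439.1 on FOXOA3-mDBD FSH, 727.0 on GFP FSH and 2810 on GFP vehicle. Ogn was most like the acetyl-CoA synthetase gene Acss2, at 0.05, the mitotic kinase gene Cdk1, at 0.12, and the kinase gene Aurkb, at 0.18. Acss2 had 859.7 on FOXOA3 FSH, 1055 on FOXOA3-mDBD FSH, 4522 on GFP FSH and 3105 on GFP vehicle. With 4 values per gene, nearness is a description only.

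**Figure D4:**
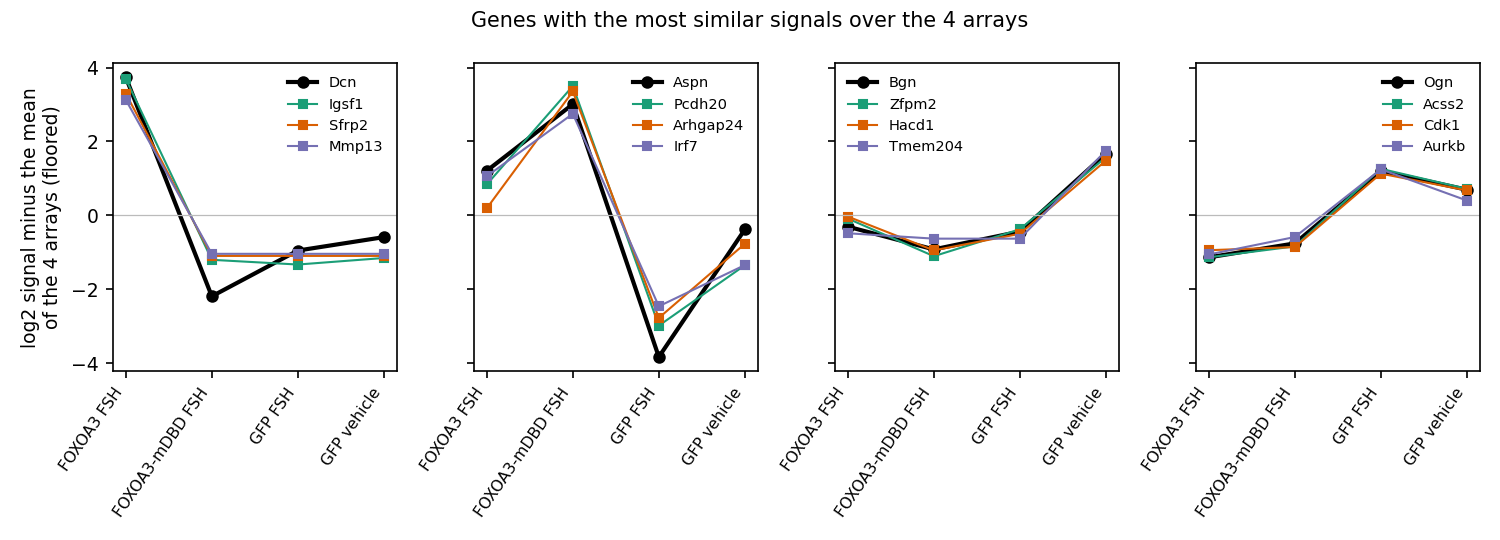
Mean-centred log2 signals, floored at 100.5, on the 4 arrays for Dcn, Aspn, Bgn and Ogn (black) and for the 3 genes closest to each (colours). Dcn and its neighbours peak on FOXOA3 FSH, Aspn on FOXOA3-mDBD FSH, Bgn on GFP vehicle and Ogn on GFP FSH.

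The fibrils to which these proteoglycans bind were read through collagen and fibril genes. In GFP FSH against GFP vehicle 0 of 12 measured genes of this list were higher and 7 were lower, beside 6.84% and 11.1% of all measured genes, with a median log2 ratio of -1.95. The fibrillar collagen gene Col3a1 had 7556 on FOXOA3 FSH, 82.0 on FOXOA3-mDBD FSH, 170.0 on GFP FSH and 2607 on GFP vehicle. The collagen cross-linking enzyme gene Lox had 10218 on FOXOA3 FSH, 899.0 on FOXOA3-mDBD FSH, 1656 on GFP FSH and 14022 on GFP vehicle. Both had lower signals on the mutant array and on GFP FSH than on FOXOA3 FSH and GFP vehicle. Of 13 measured in FOXOA3 FSH against GFP FSH, 6 were higher and 0 lower, beside 11.1% and 6.99% of all genes, with Col3a1 44.4-fold, the cell-binding matrix gene Fn1 22.5-fold and Lox 6.17-fold higher. Of 11 measured in FOXOA3-mDBD FSH against GFP FSH, 0 were higher and 4 lower, beside 12.5% and 19.1% of all genes, among them Col11a1, at 6.06-fold, and Pcolce, an enhancer of procollagen processing, at 3.43-fold. FOXOA3 FSH against FOXOA3-mDBD FSH had 8 of 12 higher and 0 lower, beside 19.0% and 9.24% of all genes, with Col3a1 at least 75.2-fold and Fn1 16.1-fold higher. Dcn and Col3a1 were thus both higher on FOXOA3 FSH than on FOXOA3-mDBD FSH. In GFP FSH against GFP vehicle Col3a1 was 15.3-fold lower, where the log2 ratio of Dcn was -0.36.

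Ligands and receptors that the proteoglycans act on included Tgfb2, a TGF-beta ligand, with 1569 on FOXOA3 FSH, 942.4 on FOXOA3-mDBD FSH, 459.1 on GFP FSH and 4496 on GFP vehicle. It was brightest without hormone. Of 12 measured genes of this list 1 was higher and 5 lower in GFP FSH against GFP vehicle, beside 6.84% and 11.1% of all genes, with Bmp4, a bone morphogenetic protein, 13.0-fold lower and Egfr, a receptor that decorin binds, 5.14-fold higher. FOXOA3 FSH against GFP FSH had 3 of 12 higher and 1 lower, beside 11.1% and 6.99% of all genes, with Tgfb2 3.42-fold and the latent TGF-beta binding gene Ltbp1 2.78-fold higher, and Egfr 2.19-fold lower. FOXOA3-mDBD FSH against GFP FSH had 1 of 11 higher and 3 lower, with the growth factor receptor gene Igf1r 4.21-fold and Egfr 4.00-fold lower. These shares are near the 12.5% and 19.1% of all genes in that comparison.

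Proteases that cut matrix proteoglycans also differed between the vectors. The aggrecanase gene Adamts5 had 4877 on FOXOA3 FSH, 205.0 on FOXOA3-mDBD FSH, 714.5 on GFP FSH and 9318 on GFP vehicle. It was 6.83-fold higher in FOXOA3 FSH and 3.49-fold lower in FOXOA3-mDBD FSH than in GFP FSH. Mmp13 had 1805 on FOXOA3 FSH and 83.5, 11.8 and 40.1 on FOXOA3-mDBD FSH, GFP FSH and GFP vehicle, at least 18.0-fold higher on FOXOA3 FSH than on each of the others. Of the protease list, 2 of 7 were higher and 1 lower in FOXOA3 FSH against GFP FSH, beside 11.1% and 6.99% of all genes. In FOXOA3-mDBD FSH against GFP FSH 0 of 5 were higher and 4 lower, beside 12.5% and 19.1%. The vectors set against each other, FOXOA3 FSH against FOXOA3-mDBD FSH, gave 5 of 7 higher and 0 lower, beside 19.0% and 9.24%.

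**Figure D5:**
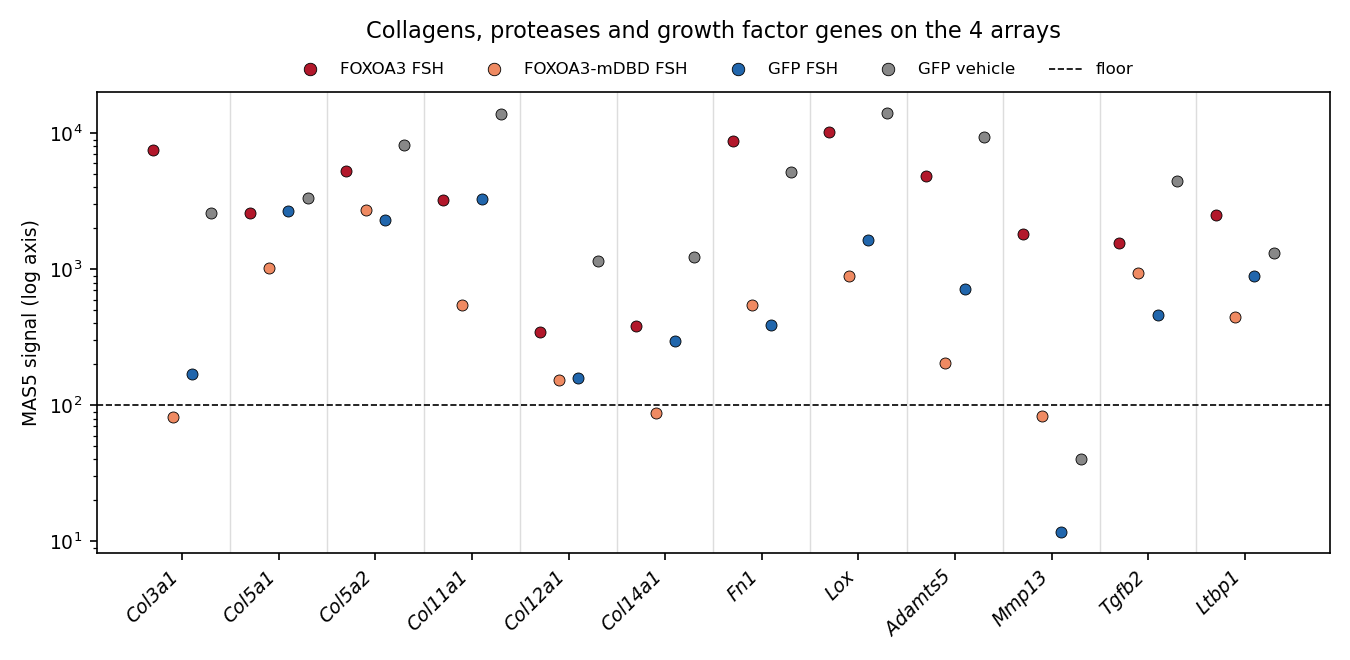
MAS5 signals on a log axis of collagen, matrix, protease and growth factor genes on the 4 arrays (colours), with the floor of 100.5 dashed. On FOXOA3 FSH and the mutant array Col3a1 stands at 7556 and 82.0 and Adamts5 at 4877 and 205.0, and Mmp13 is above the floor on FOXOA3 FSH alone.

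Enzymes that build and sulfate the sugar chains made up the next list. Of 20 measured chain assembly genes 1 was higher and 2 were lower in FOXOA3 FSH against GFP FSH, with a median log2 ratio of -0.18, beside 11.1% and 6.99% of all measured genes. Papss2, which makes the sulfate donor, had 492.6 on FOXOA3 FSH, 307.2 on FOXOA3-mDBD FSH, 1660 on GFP FSH and 580.6 on GFP vehicle. In FOXOA3-mDBD FSH against GFP FSH 1 of 21 was higher and 9 were lower, with a median of -0.71, beside 12.5% and 19.1% of all measured genes. The lower genes included Papss2, at 5.40-fold, and the chondroitin polymerising genes Chpf2, at 4.53-fold, and Chsy1, at 3.81-fold. The higher one was Dsel, an enzyme of the kind that turns chondroitin into dermatan sulfate, with 2818 on FOXOA3 FSH, 7481 on FOXOA3-mDBD FSH, 1913 on GFP FSH and 1195 on GFP vehicle. In GFP FSH against GFP vehicle 2 of 21 were higher and 0 lower, beside 6.84% and 11.1% of all measured genes. The higher ones were Chst1, a keratan sulfate sulfotransferase gene, at least 2.90-fold, and Papss2, at 2.86-fold.

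Other proteoglycans were read in the same way. Vcan, the large proteoglycan versican of the follicle, had 2657 on FOXOA3 FSH, 1460 on FOXOA3-mDBD FSH, 5898 on GFP FSH and 2315 on GFP vehicle. It was brightest with FSH under GFP, and was 2.22-fold lower in FOXOA3 FSH and 4.04-fold lower in FOXOA3-mDBD FSH than in GFP FSH. Of 15 measured genes 3 were higher and 2 lower in FOXOA3 FSH against GFP FSH, beside 11.1% and 6.99% of all genes, with Srgn, an intracellular granule proteoglycan gene, at least 3.90-fold higher and the syndecan gene Sdc2 2.35-fold higher. In FOXOA3-mDBD FSH against GFP FSH 3 of 15 were higher and 6 lower, beside 12.5% and 19.1% of all genes, with the endothelial proteoglycan gene Esm1 at least 5.70-fold higher and the glypican gene Gpc1 3.86-fold lower.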

How the data were processed

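Expression was measured on 4 rat arrays, 1 per group. Per the submitters' processing notes the authors used MAS5 to make the deposited table, which holds linear intensity values. No version or setting of MAS5 is named there. Trimmed means were 500.1 to 500.2 on the arrays (2% off each end), so the arrays came already scaled and were left as they were. Such scaling cannot show a change of total RNA per cell, and MAS5 ratios are unsteady for dim probe sets. Precision is limited by having 1 array per group.

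A platform annotation table gave 1 gene symbol for 20826 of the 31099 probe sets, several for 436 and none for 9780, while 57 were controls. Each of 14217 genes was read by its probe set with the highest average. The floor of 100.5 was the median of the non-control signals. Ratios of floored signals were taken on the log2 scale with Python 3.11.15 and pandas 2.3.3, and the steps were checked on simulated data. Genes were named by rule: all members, every other family gene above the floor, and up to 4 genes per list and comparison with the largest folds past 2. The genes on the axis of the plot of partner genes, and the neighbours in the genome, were chosen after their values were seen. The members and lists were chosen with earlier results of these data known. Gene order and promoters came from RefSeq (GRCr8), and promoters of 4 of the 7 members were in the table. The motifs were chosen after the sequences had been read. The alternatives were no floor, a filter at the 75th percentile, quantile normalization, median centring, and the mean of all probe sets.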

Additional observations from a re-analysis of the deposited data

How the results depend on the processing

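With 1 array per group no replicate could be left out. No paired analysis was possible because each group has 1 array. Of 112 values of single members under the 5 alternatives, 110 kept their direction where past 2-fold and their side of 2-fold, and the other 2 were those of Bgn, whose mutant signal is under the floor. Without a floor its log2 ratio was -2.94 in FOXOA3-mDBD FSH against GFP FSH and 3.07 in FOXOA3 FSH against FOXOA3-mDBD FSH. In FOXOA3 FSH against FOXOA3-mDBD FSH this also gave 2 members higher and a median of 1.35. The filter at the 75th percentile (a signal of 542.5) leaves fewer members measured. It gave medians of -1.24 in GFP FSH against GFP vehicle (4 members), 4.69 in FOXOA3 FSH against GFP FSH (3 members, 1 lower), 2.44 in FOXOA3-mDBD FSH against GFP FSH (2 members, 1 lower) and -0.12 in FOXOA3 FSH against GFP vehicle (4 members). The median of 2.44 has the opposite sign to the unfiltered one of -1.10. The medians of so few genes follow which of them pass. Of 75 counts and medians, 67 stayed within 1.5 times.

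Over all genes, the same filter gave 695 of 6367 genes higher in place of 1105 of 9941 in FOXOA3 FSH against GFP FSH, 1206 of 6354 in place of 1913 of 10092 in FOXOA3 FSH against FOXOA3-mDBD FSH and 319 of 6278 in place of 527 of 9904 in FOXOA3 FSH against GFP vehicle, where no floor gave 819. These counts fell along with the genes measured. In FOXOA3 FSH against FOXOA3-mDBD FSH median centring gave 1314 genes higher and 1351 lower, in place of 1913 and 932, and moved the median of all genes to 0.01 from 0.20. In FOXOA3-mDBD FSH against GFP FSH it moved that median to -0.04 from -0.16.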

Other observations

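Active FOXO1 with its DNA-binding mutant as the comparator gave further values for the genes around the small leucine-rich proteoglycans. In that comparison, FOXOA3 FSH against FOXOA3-mDBD FSH, 9 of 21 measured chain assembly genes were higher and 1 was lower, beside 19.0% and 9.24% of all measured genes. The linker-region enzyme gene B3gat3 was at least 5.35-fold higher and the chondroitin polymerising gene Chpf 4.32-fold higher, and Dsel was the gene that was lower. Of 14 other proteoglycans 5 were higher and 1 was lower, with the glypican gene Gpc1 6.06-fold higher and Esm1 5.14-fold lower. Ligand and receptor genes had 5 of 12 higher and 0 lower, with Ltbp1, which anchors latent TGF-beta in the matrix, 5.56-fold higher. The same shares of all genes, 19.0% and 9.24%, stand beside these counts. Median centring gave 1314 higher and 1351 lower over all genes in this comparison, and the list counts were not taken again under it.

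The 2 pairs with like spike signals differed in their calls among all genes. FOXOA3-mDBD FSH against GFP FSH had 12.5% higher and 19.1% lower. The other such pair, FOXOA3 FSH against GFP vehicle, which differs in both vector and hormone, had 5.32% higher and 4.01% lower. The values that follow are from this pair. Of 12 collagen fibril partners 1 was higher, Col3a1 at 2.90-fold, and 5 were lower, with Col11a1 at 4.29-fold. Bmp4 was 6.63-fold lower, and the syndecan gene Sdc3 2.77-fold lower. Serglycin (Srgn) was at least 3.90-fold higher, and 2 of 21 chain assembly genes were higher and 0 lower.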
